A study of Homo sapiens with 6 samples.

Results

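The solute carrier genes are 206 of the 13721 genes in an exon annotation of U-87 MG cells, a human malignant glioma line. Members were taken by name: SLC, a family number, the letter A, a member number and an optional AP or P ending. Of the 206, 197 have at least 1 intron in the annotation, which holds 12462 genes with introns in all. The rule used names and no measured value. One name, SLC4A1AP, is matched through its AP ending but encodes an adaptor protein and not a carrier. Another 22 names in the annotation carry a different letter after the family number (SLC35B1, for example) and fall outside the rule.

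The study gave U-87 MG cells EPZ015666, which inhibits the protein arginine methyltransferase PRMT5, and was concerned with intron detention, the state of an otherwise processed nuclear RNA that still holds an intron. The 6 poly(A)-selected libraries are 3 of cells given EPZ015666 at 10 µM for 72 h and 3 of cells given the vehicle DMSO (10 µl in 10 ml of medium) for 72 h. All 6 come from the same line in the same serum-containing medium, and nothing in the labels says that the replicates were separate cultures. What was analysed is a single list of exons in hg19 coordinates that serves all 6 libraries and has no value for any of them. It therefore gives the structure of the listed transcripts and no level, no depth and no difference between EPZ015666 and DMSO.

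Solute carriers are membrane proteins that move ions, metals, sugars, amino acids, nucleotides, vitamins and metabolic acids across the plasma membrane and the membranes of organelles. They are grouped into numbered families by sequence, and a family usually shares a kind of substrate. Most have many membrane-spanning helices encoded over many exons, so a transcript that ends early lacks the later helices. In glial tissue they are known for clearing glutamate, exporting lactate, exchanging cystine for glutamate and setting cell volume and pH.

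The annotation lists isoforms of a gene as runs of exons from 5′ to 3′. A first exon is told apart here by its donor (its 3′ edge), and a final exon by its acceptor (its 5′ edge). An early end is a final exon that stops before the acceptor of the most 3′ final exon of the gene. A spanned intron is spliced in 1 listed isoform and lies inside a single exon of another, with both outer edges of that exon shared. The reference is GENCODE release 29, matched by the lengths of introns and exons, since its coordinates are of a later genome build.

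Sequences of the exons on which the structures below turn are printed first, so that the listed chains can be read as letters. They were read from GENCODE transcripts that hold an exon of the same length (or a final exon after an intron of the same length), and the coordinates are the annotation's own, in hg19. SLC25A3 encodes the mitochondrial phosphate carrier, and the pair of neighbouring exons shown here is known to be used alternatively, with the upstream exon favoured in heart and skeletal muscle. Capitals mark the bases that are identical in an alignment of the pair.
SLC25A3 exon 3, chr12:98989211-98989335, plus strand: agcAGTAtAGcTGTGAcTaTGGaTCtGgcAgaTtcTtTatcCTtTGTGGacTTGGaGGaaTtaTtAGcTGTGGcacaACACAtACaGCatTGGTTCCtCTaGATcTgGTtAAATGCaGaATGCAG
SLC25A3 exon 4, chr12:98989505-98989626, plus strand: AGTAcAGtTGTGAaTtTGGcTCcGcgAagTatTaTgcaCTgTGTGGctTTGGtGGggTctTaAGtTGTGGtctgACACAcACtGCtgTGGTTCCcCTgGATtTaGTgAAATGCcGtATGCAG
Over 122 aligned bases the exons share 81, or 66.4%. Both lie wholly in coding sequence. The annotation lists 1 isoform of SLC25A3, and it holds both exons in a row, 125 and 122 bases long, with an intron of 169 bases between them. Of 17 reference transcripts, 4 have an internal exon of 125 bases, 6 have one of 122 bases and none has this pair next to each other. The listed chain is thus not the chain of any reference transcript.

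SLC36A1, which carries small amino acids with protons and is known from the lysosome, has a similar case in an exon of 26 bases. Capitals mark the stop codon that reference transcript SLC36A1-202 uses in this exon.
SLC36A1 exon 8, chr5:150848807-150848832, plus strand: atcctgTGAatggatttacagcccat
The annotation places it as an internal exon, followed by an exon of 99 bases after an intron of 4401 bases, a pair that no reference transcript has. It lies inside the seventh intron of the reference transcript with the longest coding sequence, an intron of 5747 bases. An isoform read through it in the frame of SLC36A1-202 would reach that stop.

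SLC39A11, a zinc transporter, has more listed final exons than any other member. At its exon 8 the isoforms part: 2 of the 12 run on from it into the intron, and others splice from it to separate early final exons. Capitals mark its last 3 bases, before that point.
SLC39A11 exon 8, chr17:70845773-70845943, minus strand: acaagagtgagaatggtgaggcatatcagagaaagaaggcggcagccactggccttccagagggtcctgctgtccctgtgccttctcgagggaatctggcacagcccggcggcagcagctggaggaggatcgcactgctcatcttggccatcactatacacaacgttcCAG
An early final exon of 320 bases follows after an intron of 11513 bases. Its stretch from the acceptor to the stop codon of reference transcript SLC39A11-207 is shown with the stop in capitals at the end. The 3 capitals at the start are the bases that a further listed acceptor, 3 bases downstream, leaves out.
SLC39A11 early final exon, chr17:70834177-70834259, minus strand: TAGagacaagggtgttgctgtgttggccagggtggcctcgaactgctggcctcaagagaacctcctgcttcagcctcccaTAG

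The share of solute carrier names with a listed isoform was that of protein-coding genes in general. Of 335 protein-coding reference names that meet the rule, 206 were listed (61.5%, 95% Wilson interval 56.2 to 66.5%), beside 61.4% of 19936 protein-coding names in all. None of the other 68 matching reference names, which are not protein-coding, was listed. The families differed widely around that share. They number 49 in the reference, of which 12 had every name listed and 6 had none (SLC18, SLC28, SLC32, SLC34, SLC40 and SLC49, all small). Whether a name that is absent was not transcribed, or failed a filter of the authors, was not tested.

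Among the most fully listed were carriers of mitochondria, of the Golgi and of metals. The mitochondrial carriers (SLC25) had 40 of 48 names listed (83.3%, Wilson interval 70.4 to 91.3%). The importers of zinc and other metals in SLC39 had 12 of 14, and the zinc exporters of SLC30 had 8 of 10. The 5 SLC35 names under the rule, the nucleotide sugar carriers of the Golgi and their relatives, were all listed. The Wilson intervals of SLC39 (60.1 to 96.0%), SLC30 (49.0 to 94.3%) and SLC35 (56.6 to 100%) include the 61.5% of all carriers. Among amino acid carriers SLC38 had 9 of 11, SLC7 had 7 of 13 and SLC1 had 4 of 7. SLC4, the bicarbonate transporters, had 9 of 11, the adaptor SLC4A1AP counted among both, and SLC16, which carries lactate and other monocarboxylates, had 11 of 14.

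Among the least listed were families known from neurons and absorbing epithelia. SLC5, the sodium-coupled sugar and vitamin carriers, had 1 of 12 (8.33%, Wilson interval 1.49 to 35.4%), the vitamin carrier SLC5A6. SLC17 had 1 of 9, the lysosomal sialic acid carrier SLC17A5, and the vesicular glutamate carriers of that family were absent. SLC6, the sodium-coupled carriers of neurotransmitters and amino acids, had 5 of 19 (26.3%): SLC6A6 for taurine, SLC6A8 for creatine, SLC6A9 for glycine, and SLC6A15 and SLC6A17 for neutral amino acids. SLC10, the bile acid carriers and their relatives, had 2 of 7, and SLC22, the organic ion carriers, had 9 of 22. By role, 6 of 32 names for neurotransmitters and vesicles were listed (18.8%, Wilson interval 8.89 to 35.3%), beside 27 of 33 for metals (81.8%, 65.6 to 91.4%), 27 of 40 for amino acids, 17 of 35 for sugars and 13 of 31 for organic ions, bile acids and drugs.

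**Figure D1:**
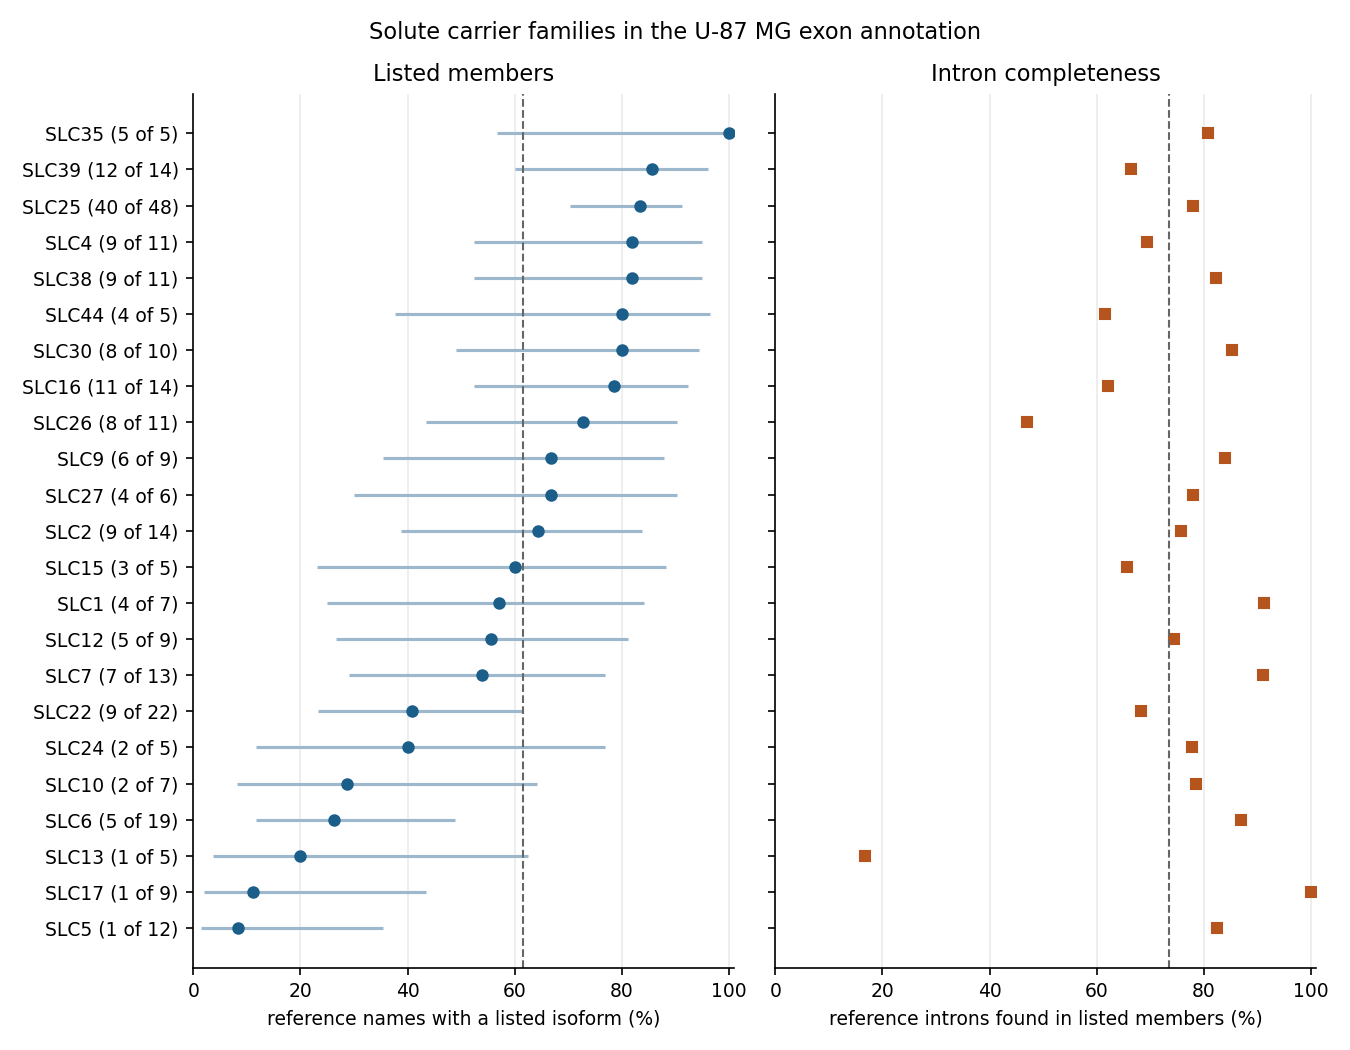
Left, the share of protein-coding reference names with a listed isoform (%) in each family of 5 or more names, with 95% Wilson intervals as bars; right, the share of reference introns found in the listed members (%). Dashed lines are the values over all solute carriers, 61.5% and 73.4%; SLC5, SLC17, SLC13 and SLC6 lie at the bottom on the left, and SLC13 and SLC26 stand lowest on the right.

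Carriers used as cell type markers were listed in part. Of 5 astrocyte markers, 3 were listed: SLC1A3 for glutamate, SLC4A4 for bicarbonate and SLC25A18 for mitochondrial glutamate. SLC1A2, the main glutamate carrier of mature astrocytes, was absent, as was SLC7A10. Of 12 neuronal markers only SLC12A5, the neuronal potassium chloride carrier, was listed, with 11 of its 25 reference introns. Of 9 kidney tubule markers only SLC13A3 was listed, with 2 of 12 reference introns, and 2 of 7 markers of intestine and liver were present, among them SLC27A5. Of 3 erythroid markers, 2 were present, SLC25A37 and SLC25A38, both of which serve haem synthesis in other cells too.

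Carriers known in glioma and in dividing cells are given next by how many of their reference introns were listed. The glucose carriers SLC2A1 and SLC2A3 had 8 of 9 and 9 of 9 reference introns. The cystine and glutamate exchanger SLC7A11 had 11 of 11, and the large neutral amino acid carrier SLC7A5 had 8 of 9, with 9 of 11 for SLC3A2, the heavy chain with which both pair. The glutamine carriers SLC1A5, SLC38A1 and SLC38A2 had 6 of 7, 14 of 16 and 15 of 15. The lactate carriers SLC16A1 and SLC16A3 each had 3 of 4. For ions, SLC12A2, which imports sodium, potassium and chloride, had 23 of 26, and SLC4A7, which imports bicarbonate, had 22 of 25. SLC40A1, the iron exporter, was not listed. No level stands behind these counts, so they do not rank the carriers by expression.

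Over all listed solute carriers, 1558 of 2123 introns of the reference transcripts were found by length (73.4%), beside 109212 of 138655 (78.8%) over all genes. The reference transcript is the protein-coding one with the longest coding sequence. Per gene the median was 80.6% for the 206 carriers and 83.3% over all genes. Every reference intron was found in 37 carriers (18.0%; 20.0% over all genes), among them SLC1A1, SLC2A3, SLC7A11, SLC25A4, SLC38A2 and SLC38A10. Fewer than 50% of the introns were found in 35 carriers (17.0%; 19.3% over all genes). Read from the other side, 1749 of 1936 listed introns (90.3%) had a reference intron of the same length in the gene, and 91.5% did over all genes. The carriers' pooled share of reference introns found, 73.4%, was thus below the 78.8% over all genes. The other shares lie nearer the background.

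Families differed in completeness more than the carriers as a whole differed from other genes. SLC1 had 31 of 34 reference introns (91.2%) and SLC7 had 61 of 67 (91.0%). SLC26, which exchanges chloride, sulphate and other anions, had 61 of 130 (46.9%). Its listed members ranged from SLC26A11 with 17 of 17 and SLC26A6 with 17 of 20 to SLC26A7 with 1 of 18, SLC26A9 with 1 of 21 and SLC26A2 with 0 of 2. SLC39 had 57 of 86 (66.3%), with SLC39A13 and SLC39A6 at 8 of 9 each and SLC39A2 and SLC39A3 at 0 of 3 each. SLC25 had 224 of 287 (78.0%). The role lists spanned 54.3% for monocarboxylates and carboxylates to 88.7% for the 6 listed names of neurotransmitters and vesicles, a list that is short in names and near complete in introns.

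The lowest completeness among carriers with at least 3 reference introns was 0%, shared by several genes. SLC16A10, which carries aromatic amino acids, SLC2A10 and SLC2A11, both of the glucose carrier family, were listed as a single exon each, of 517, 2571 and 175 bases. SLC25A37, the mitochondrial iron importer, and SLC30A10, the manganese exporter, were listed with introns (4 and 7), none with the length of an intron of the reference transcript used, and SLC39A2 likewise with 1. In all, 9 carriers were listed with no intron (4.37%, Wilson interval 2.32 to 8.09%; 9.18% over all genes). The carriers are all protein-coding, whereas the 9.18% also takes in other listed names. Of the 12242 protein-coding genes listed, 912 had no intron. The 9 carriers are the 3 single-exon ones above with SLC26A2, SLC30A1, SLC3A1, SLC47A2, SLC4A11 and SLC8A2.

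The 565 reference introns that were not found lay mostly before the first or after the last one found. Where few were found, as in SLC26A7 with 1 of 18, these places can take in the middle of a gene. Before the first found intron of the transcript lay 192 of them (34.0%) and after the last found intron 109 (19.3%). Another 75 were split by 1 or more listed exons, 72 lay between found introns with no such exon, 42 lay inside a listed exon of the same joined length, and 75 belonged to the carriers listed with no intron. The 75 split introns were in 58 carriers, a count with no share over all genes beside it, and 67 of the introns were split by a single exon. The single exons ranged from 25 bases in SLC11A2, an iron importer, to 43309 bases, with a median of 109 bases; 23 of the 67 had a length that is a multiple of 3.

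Some listed chains joined exons that the reference uses apart, at a share near the background. The longest listed chain of introns was a run of 1 reference transcript in 72 of 197 carriers (36.5%; 39.4% over all genes). In 13 carriers (6.60%; 5.95% over all genes) a pair of neighbouring listed exons is known to the reference but never in 1 transcript. They include SLC1A3, SLC7A8, SLC25A3, SLC25A15, SLC25A24, SLC25A36, SLC25A37, SLC36A1, SLC38A7, SLC38A9, SLC39A11 and SLC52A2. The SLC25A3 exons printed above are such a pair. In SLC1A3, exons of 102 and 205 bases stand on either side of an intron of 40984 bases.

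Internal exons were of usual length with a tail of very long ones. The 1712 distinct internal exons of carriers had a median of 129 bases, beside 123 bases over all genes. An internal exon of more than 5000 bases was listed in 22 of 197 carriers (11.2%; 8.72% over all genes). The longest were 79193 bases in SLC25A12, a mitochondrial aspartate and glutamate carrier, 75150 bases in SLC30A10, 53636 bases in SLC26A7, 52502 bases in SLC20A2, 50631 bases in SLC23A3 and 47384 bases in SLC13A3. Of these 6 genes, 4 also had under 50% of their reference introns: SLC30A10, SLC26A7, SLC23A3 and SLC13A3. How many reads lay over these stretches was not analysed here.

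Introns of carriers were as long as those of other genes, with a median of 1502 bases beside 1471. The longest was 250617 bases in SLC8A1, a sodium and calcium exchanger, followed by 116786 bases in SLC10A7 and 112914 bases in SLC39A11. Among the shortest was an intron of 50 bases in SLC16A3.

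No carrier had an alternative start. None of 197 carriers had 2 or more first exons, beside 0.281% of all genes with introns (35 of 12462), and none had more than 1 listed start of its first exon. For a count of 0 of 197 the Wilson interval runs to 1.91%, which includes the background. The first listed intron was the first intron of the reference transcript in 91 carriers (46.2%; 51.5% over all genes) and the first of another transcript in 46 (23.4%; 23.3%). It was a later intron in 15 (7.61%; 5.91%) and matched no reference intron in 45 (22.8%; 19.3%). No carrier had a skipped exon, and none of the 12462 genes did (0%).

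Variation between isoforms of a carrier was confined, in this annotation, to the 3′ end. The 206 carriers have 351 distinct isoforms, and 75 of the 197 with introns have 2 or more (38.1%; 38.6% over all genes). In each of the 46 carriers with 2 or more final exons, every isoform followed the longest one up to the intron before its own final exon. The same held for all 2802 genes with 2 or more final exons, so it describes how the annotation is built and not the carriers.

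The number of carriers with alternative ends was at the background. Of 197 carriers, 46 had 2 or more final exons (23.4%, Wilson interval 18.0 to 29.7%; 22.5% over all genes) and 16 had 3 or more (8.12%; 7.50%). The share rose with the number of introns in carriers and other genes alike. It was 12.5% of carriers with 1 to 4 introns and 33.3% of those with 15 or more, beside 11.1% and 35.0% over all genes. Of the 151 carriers with 1 final exon, 29 had 2 or more listed 3′ ends of it. The share over all genes is not given for this count, so it cannot be called high or low. By family, SLC38 had 5 of 9 members with 2 or more final exons and SLC25 had 5 of 40, while SLC1, SLC29, SLC41, SLC43 and SLC44 were among those with none. These are counts of few genes and were not tested.

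**Figure D2:**
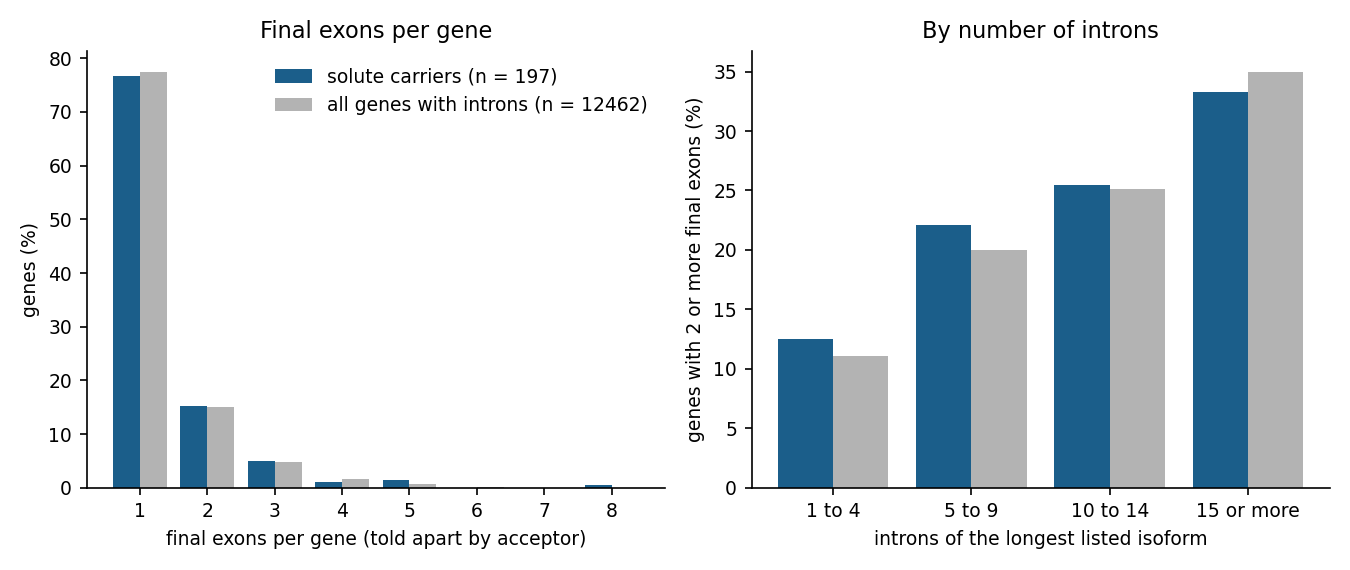
Left, the share of genes (%) by number of final exons for the 197 carriers with introns (blue) and all 12462 genes with introns (grey; 4 genes with more than 8 are left out); right, the share with 2 or more final exons by number of introns. The bars of both sets lie close together in each bin; 1 carrier, SLC39A11, stands at 8.

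An early end was listed in 35 carriers (17.8%; 17.1% over all genes). In all 35 at least 1 early final exon begins at the acceptor of an internal exon (17.8%; 16.2%), and 11 carriers also had an early final exon of its own, inside an intron (5.58%; 4.49%). The early final exons of the 35 carriers number 76, of which 57 share an internal exon's acceptor and 19 are separate. Their median length was 634 bases, from 53 bases in SLC38A9 to 105665 bases in SLC39A11. Of the 57, 46 run past the donor of the internal exon, by a median of 606 bases, 2 stop at it and 9 stop before it. The 9 are in 7 carriers, among them SLC26A7 and SLC12A5, whose internal exons at that acceptor are 53636 and 11674 bases long, and SLC38A9, where it is 60 bases.

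The remaining 11 carriers with 2 or more final exons had no early end. In 9 of them the acceptors lead to a single shared 3′ end, as in SLC16A1, SLC16A3, SLC31A1 and SLC50A1. Acceptors within 12 bases of each other were listed in 4 carriers: 3 bases apart in SLC25A36 and SLC39A11, 4 in SLC30A7 and 5 in SLC38A6. No such count over all genes is given.

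Of the 76 early final exons, 55 begin after an intron that a reference transcript has before its own final exon, and 43 of these also end within 10 bases of the length of that final exon. The matching transcript was protein-coding for 36, of the nonsense-mediated decay class for 3, a retained-intron transcript for 3 and a processed transcript for 1. In 34 of the 43 (79.1%) the annotated stop codon lies in the early final exon. Some of these are the ends of the longest reference coding sequence, as in SLC19A1 (1773 coding bases) and SLC25A35 (900 coding bases). The other 33 of the 76 early final exons have no reference final exon with both edges.

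Where an early end runs past an internal exon and a reference transcript does the same, the letters right after the donor could be read. They were GT, the letters that open most introns, in 25 of 26 cases; in the other, SLC13A3, the exon runs on by 1 base only. In 20 of these 26 the reference transcript has its stop in the final exon, and in 17 of the 20 the stop lies past the donor, at a median of 57 bases from the donor to the end of the stop, and from 4 to 335 bases. The following lines show 8 of them, each with the last 12 bases of the shared exon in lower case and the extension up to and including the stop codon in capitals.
SLC22A23, chr6:3324064-3324079, minus strand: gctctactggtcGTGA
SLC25A16, chr10:70246897-70246912, minus strand: tgaaaagtgcctGTAA
SLC20A1, chr2:113410513-113410533, plus strand: ctgcaggctagtGTACGCTGA
SLC39A6, chr18:33691010-33691033, minus strand: ctggttgatatgGTAAGTTTTTAA
SLC25A36, chr3:140682058-140682083, plus strand: ctgcaatggcagGTATGAATGTATAA
SLC2A13, chr12:40345019-40345070, minus strand: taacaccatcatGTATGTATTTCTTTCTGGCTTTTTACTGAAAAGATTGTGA
SLC10A7, chr4:147363890-147363946, minus strand: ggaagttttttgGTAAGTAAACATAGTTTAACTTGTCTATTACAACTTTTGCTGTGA
SLC11A2, chr12:51382108-51382176, minus strand: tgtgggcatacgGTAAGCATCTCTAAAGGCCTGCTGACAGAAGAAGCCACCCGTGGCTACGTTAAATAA
In SLC22A23, an organic ion carrier by family, and SLC25A16, a mitochondrial carrier, the stop is formed within the first 4 bases of the intron. SLC11A2 is known for a pair of 3′ ends, one of which carries an iron-responsive element; its extension here adds 57 bases up to and including the stop.

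An early end was placed on the coding sequence where 1 given exon is in the reference transcript, which held for 52 of the 76. For an end that shares an internal exon's acceptor it is that internal exon, and for a separate end it is the exon before. Coding bases were counted up to the donor of that exon, so for ends that share an internal exon's acceptor they include that exon. The median share counted in this way was 60.6%, and for 16 it was under 50%. Ends of 1 gene were counted separately and can have the same share. Most early ends of SLC39A11 stand at 60.6%, so the median is not a value per carrier. SLC30A5, a zinc exporter into the Golgi, spans much of the range within 1 gene, with shares of 11.9%, 15.6% and 87.1%. The ends at 11.9% and 15.6% follow the same exon. They differ by an internal exon of 86 bases, which is counted only for the end that shares its acceptor. The lowest shares in other genes were 15.1% in SLC16A7, a pyruvate and lactate carrier, 17.0% in SLC10A7, and 18.6% in SLC38A10. The highest was 93.4% in SLC39A6, a zinc importer. No protein was measured.

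**Figure D3:**
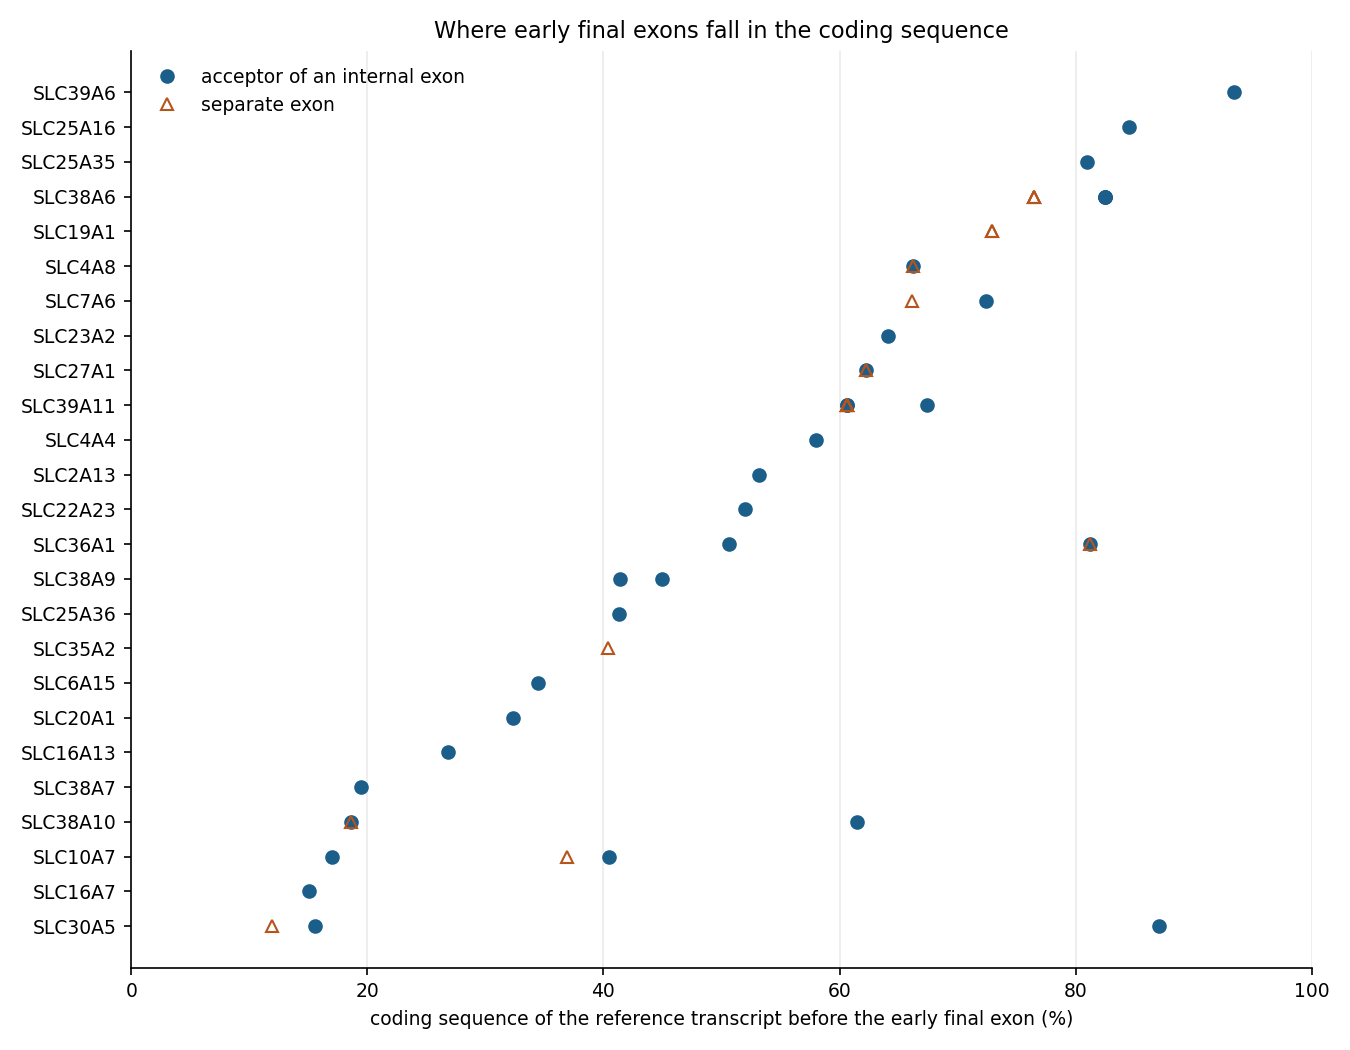
Rows are carriers with an early end that could be placed (1 such carrier is not drawn). Each symbol is 1 early final exon at its share (%) of the reference coding sequence, counted as in the text. Filled circles share an internal exon's acceptor, and their share includes that internal exon. Open triangles are separate exons, placed by the sequence before them, and symbols at the same share overlap. The ends range from 11.9% in SLC30A5 to 93.4% in SLC39A6.

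SLC39A11 lies on chromosome 17, minus strand, from 70640629 to 71088853, and has 12 distinct isoforms with 8 final exons. All 12 share their first 7 exons, of 104, 293, 119, 39, 169, 159 and 124 bases. At exon 8, of 171 bases, they part. A pair of isoforms runs on from it as final exons of 12004 and 28199 bases. Separate final exons begin after introns of 11513, 11516, 25750 and 31229 bases, and are between 317 and 105665 bases long. For all of these the coding sequence was counted up to the donor of exon 8, at 60.6% of that of the reference transcript (622 of 1026 bases).

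The 8 acceptors of SLC39A11 lead to only 5 distinct 3′ ends, and the isoforms are combinations of them. Both the end at 70833940 and the end at 70817745 are listed with each of 3 acceptors: that of exon 8, and those at 70834259 and 70834256, which lie 3 bases apart. The end at 70817745 is also listed with an acceptor at 70820022. The end at 70708879 is listed with acceptors at 70814543, 70732858 and 70709120, giving final exons of 105665, 23980 and 242 bases. The reference has 2 of the 10 early final exons with the same acceptor and end, those of 320 and 242 bases. The most 3′ final exon has ends that make it 1713 or 3173 bases long.

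Of the 14 spanned introns of carriers, 4 are in SLC39A11: 11513, 11516 and 25750 bases inside the final exon of 28199 bases, and 23668 bases inside that of 23980 bases. Its reference completeness is 5 of 9 introns. Of the missing ones, introns of 3835, 53093 and 87381 bases are split by listed exons of 293, 169 and 38478 bases. The last of these is an internal exon in the 2 longest isoforms and starts at the acceptor of the 242-base final exon.

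**Figure D4:**
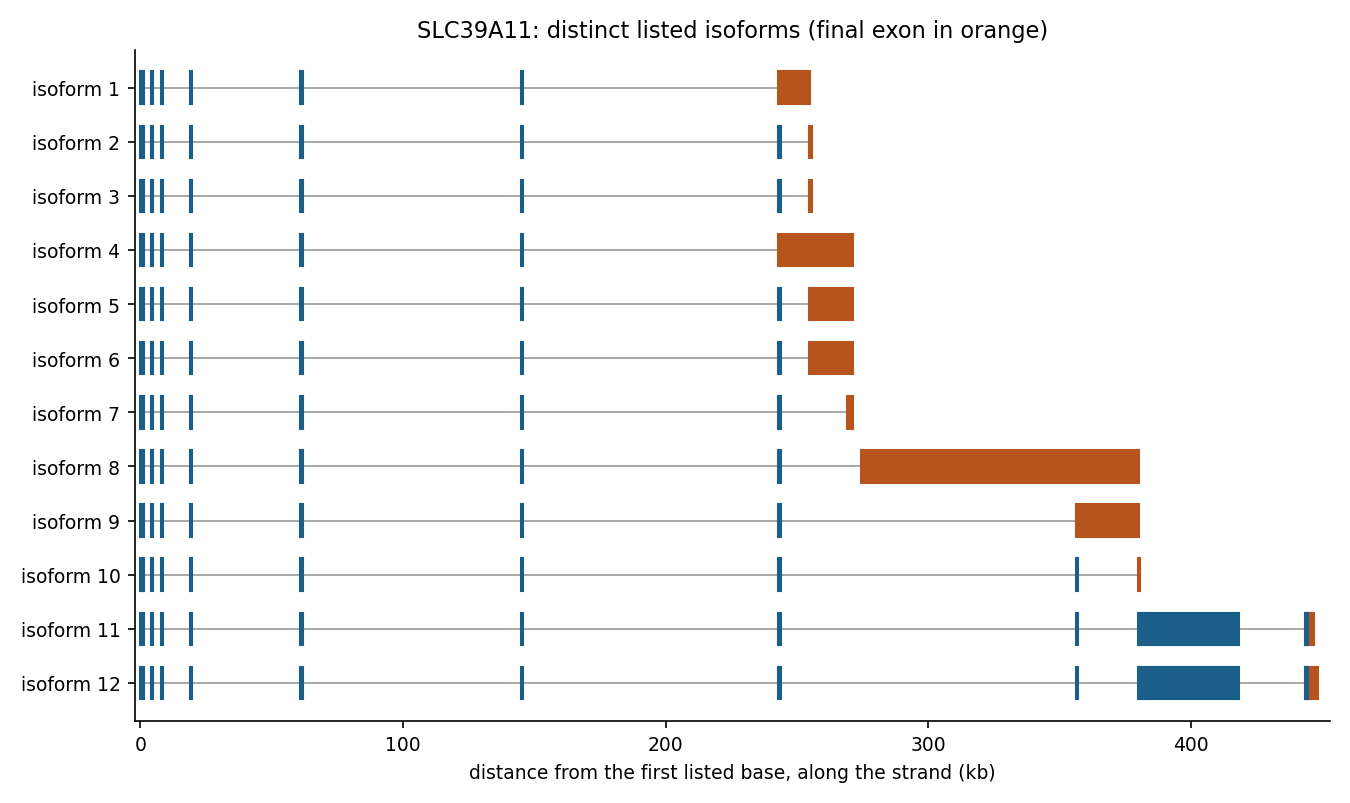
The 12 distinct isoforms of SLC39A11, drawn against the distance from the first listed base along the strand (kb); blue boxes are exons, orange boxes final exons, grey lines introns, and short exons are drawn at a minimum width. All share the same 5′ part, and long orange boxes of up to 105665 bases fill the stretch in the middle of the gene.

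SLC36A1 had 5 final exons and 6 isoforms on chromosome 5, plus strand. Its seventh exon, of 219 bases and with its donor at 50.6% of the coding sequence, is extended to a final exon of 3253 bases. The 26-base exon printed above is extended to a final exon of 1714 bases that reaches the same 3′ end, so the intron of 1320 bases between them is spanned. Further on, the exon of 170 bases is extended to 825 bases, or spliced over 567 bases to a final exon of 88 bases with the same end. The donor of the 170-base exon lies at 81.2% of the coding sequence. The acceptor of the 88-base exon is also listed with an end 8634 bases on, which takes in the whole of the most 3′ final exon of 708 bases.

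**Figure D5:**
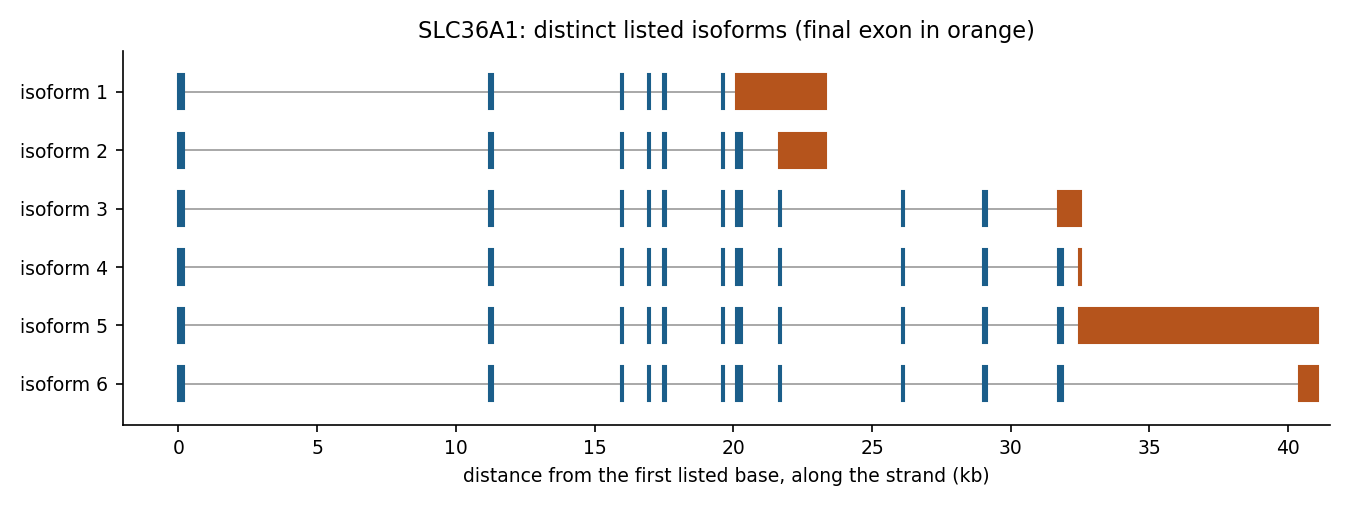
The 6 distinct isoforms of SLC36A1 against the distance from the first listed base (kb), with exons in blue and final exons in orange; short exons are drawn at a minimum width. Isoforms 1 and 2 share an early 3′ end, as do isoforms 3 and 4, and isoforms 5 and 6 share the last one.

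SLC38A6, of the sodium-coupled amino acid carriers, had 5 final exons and 11 isoforms. Its early final exons combine 3 acceptors with 3 ends, and all 9 combinations are listed, from 97 to 590 bases long. Of the 9, 6 could be placed on the coding sequence, at 76.5% for separate exons and 82.5% for those that extend an internal exon of 95 bases. All 6 follow the same exon, and the shares differ because those 95 bases are counted for the extending ends only. The intron of 213 bases between the exon of 95 bases and the next acceptor is spanned, and it is the only one of the carriers' 14 spanned introns that a reference exon covers. Its sequence was read from that transcript, SLC38A6-219, of the retained-intron class, with the first and last pair of bases in capitals.
SLC38A6 spanned intron, chr14:61518854-61519066, plus strand: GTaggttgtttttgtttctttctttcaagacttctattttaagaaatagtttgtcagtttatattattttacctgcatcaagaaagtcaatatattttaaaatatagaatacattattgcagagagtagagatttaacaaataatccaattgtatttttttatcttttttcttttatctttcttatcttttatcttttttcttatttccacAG
Full combination of acceptors and ends was also listed in SLC19A1, the reduced folate carrier, and in SLC13A3, a carrier of dicarboxylates, each with 2 early acceptors, 2 ends and all 4 pairs. In SLC13A3 the 2 ends are 1 base apart, and final exons of 49121 and 49120 bases stand beside others of 349 and 348 bases.

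In several other carriers an extended exon and a spliced one reach the same early end. SLC10A7, a relative of the bile acid carriers, had 5 final exons. Those at the 5′ side, of 3218 and 1249 bases, share a 3′ end, with a spanned intron of 1886 bases between their acceptors. The final exon of 3218 bases extends an internal exon of 83 bases, whose donor lies at 17.0% of the coding sequence. The next end of SLC10A7 is reached by a separate exon of 36635 bases and by a final exon of 1155 bases, which begins at the acceptor of the 39-base exon. SLC38A10 had 4, with ends of 1034 and 461 bases around a spanned intron of 448 bases at 18.6% of the coding sequence, and another of 416 bases at 61.5%. SLC4A8, a sodium-driven chloride and bicarbonate exchanger with all 24 reference introns found, had early ends of 5566 and 619 bases around a spanned intron of 4785 bases. SLC20A1, a phosphate importer, SLC25A35, a mitochondrial carrier, and SLC27A1, a fatty acid carrier, each have 1 spanned intron, of 90, 163 and 1481 bases.

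Separate early exons also carry coding sequence of their own in the reference. The first early end of SLC30A5 is the final exon of 779 bases after an intron of 833 bases; reference transcript SLC30A5-201 has its stop 84 bases into it, in capitals here.
SLC30A5 early final exon, chr5:68399789-68399872, plus strand: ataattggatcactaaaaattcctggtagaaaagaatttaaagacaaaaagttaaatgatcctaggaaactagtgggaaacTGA
In SLC38A10 the separate exon of 461 bases ends its reading frame after 10 bases in SLC38A10-208. SLC35A2, the UDP-galactose carrier of the Golgi, had a separate early final exon of 1280 bases after an intron of 1499 bases, and SLC35A2-207 has its stop 303 bases into it. Its other early end, of 1870 bases, begins at the acceptor of the internal exon of 737 bases and reaches the same 3′ end.

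A spanned intron was listed in 10 carriers (5.08%; 4.18% over all genes). The 14 introns have a median of 1434 bases, and 12 of them have the length of a reference intron. They are in SLC10A7, SLC13A3, SLC20A1, SLC25A35, SLC27A1, SLC36A1, SLC38A6, SLC38A10, SLC39A11 and SLC4A8, and all 10 of these also have an early end. Amino acid carriers hold 3 of the 10 genes and the zinc and other metal carriers 1. Whether any of these introns was spliced less or more after EPZ015666 was not analysed here.

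Transporters outside the rule were counted in the same way, with no test of a difference. Of 35 carriers with other names, 23 were listed (65.7%), and 7 of these had 2 or more final exons (30.4%). Of 45 ABC transporters, taken by name, 32 were listed (71.1%) and 11 of them had 2 or more (34.4%). The 32 include ABCE1, ABCF1, ABCF2 and ABCF3, which are not membrane transporters and had 1 final exon each. Of 36 ATP-driven pumps, 27 were listed (75.0%), and 10 of the 26 with introns had 2 or more (38.5%). Those shares stand above the 61.5% listed and the 23.4% with 2 or more final exons among solute carriers. The Wilson intervals of the listed shares, in that order 49.2 to 79.2%, 56.6 to 82.3% and 58.9 to 86.2%, include 61.5%. Of 32 SLC reference names with another letter, 21 were listed (65.6%). Among the listed ones with introns, 4 of 20 had 2 or more final exons (20%), below the solute carriers. The ABC transporters and pumps also have more introns, with medians of 18 and 24 beside 9 for solute carriers and 8 over all genes. The ABC transporters included 2 genes with 2 or more first exons, and the pumps and the other-name carriers none. Of the partner proteins of the monocarboxylate carriers, BSG was listed and EMB was not.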

How the data were processed

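RNA of 6 poly(A)-selected U-87 MG libraries was sequenced by the authors (3 EPZ015666, 3 DMSO), and 1 deposited exon annotation was analysed. It has 382567 rows of exon start and end positions (unit: other, in bases) and no column of per-library values. The submitters' processing notes give the build hg19 and the tools RSEM, bedtools 2.20.1, STAR 2.4.1d, DESeq 1.10.1 and Bowtie 1.0.1, without saying which made this file. Depth is not known from it. The steps that assembled and filtered the isoforms are not given in the sources used here, and they set which carriers, ends and starts are listed.

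Rows whose end precedes their start (76, none in a carrier) were dropped. Consecutive rows of 1 parent running 5′ to 3′ formed an isoform, giving 31659 entries. Where consecutive exons overlapped (10093 cases), the later was kept. Carriers were matched to GENCODE release 29 by symbol (206 of 206), and introns and exons by exact length, since the builds differ. Sequences came from GENCODE transcripts; none from chromosome 8 was read for printing. Exon pairs were aligned globally (match 1, mismatch penalty 1, gap opening 3, extension 1).

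Genes of 1 annotation are not replicates, so no test was run; shares carry 95% Wilson intervals, which cover counting only, beside the same share over all genes. The members and lists were chosen with earlier results of these data known. Genes were named by rule: SLC39A11, up to 12 with most final exons, all with a spanned intron up to 12, the 6 least complete, the 3 longest and 3 shortest introns, and a fixed set of well-known carriers. Some genes that the rule names are not reported here. Other genes named as examples, SLC25A3's alignment and the printed sequences were chosen after their values were seen. Reading of structures was tested on simulated rows made from 287 reference carriers. All 171 planted ends were read back, and none was read in the 116 carriers without one. The simulated rows had no overlapping exons and at most 1 added isoform per gene, so the handling of overlaps was not tested by them. Python 3.11.15, scipy 1.17.1 and matplotlib 3.10.9 were used.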

Additional observations from a re-analysis of the deposited data

How the results depend on the processing

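No paired analysis was possible because the annotation has no value per library. Of the 38 alternatives run for the 6 results, 34 left a count of carriers within 1.5 times the reported count, or a share within its 95% Wilson interval. Some of the 34 could not have moved a result, such as 3 or more first exons where no carrier had 2 or more. The share of reference introns found, 73.4%, became 84.3% when the number of introns of the longest isoform was divided by that of the reference transcript. It became 78.1% with internal exons in place of introns and 76.9% with introns split by a listed exon counted as found; both were chosen after seeing the data. The 46 carriers with 2 or more final exons became 16 with 3 or more. Names with a letter other than A, also added after seeing the data, changed no result beyond these bounds. Limits: a listed exon shows neither a level nor a library, length matching can pair introns of different position, and leaving out replicates cannot be run.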
